A study of Homo sapiens with 6 samples.

Results

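The APOBEC3 cytidine deaminases and 5 further genes of nucleic acid restriction (SAMHD1, TREX1, ADAR, ZC3HAV1 and SLFN11) were examined in RNA-seq of human PC3 cells with a TTC3 shRNA (3 libraries) or a control shRNA (3 libraries). The members were the rows of the gene count table whose symbol was APOBEC3B, APOBEC3C, APOBEC3D, APOBEC3F, APOBEC3G, SAMHD1, TREX1, ADAR, ZC3HAV1 or SLFN11, which gave 10 of 62700 genes. PC3 is an established line from human prostate cancer, obtained per the labels from the American Type Culture Collection, and TTC3 is an E3 ubiquitin ligase. The labels give genotype WT for the control shRNA cells and TTC3 knockdown for the others, and they name no drug, virus or interferon treatment, no second shRNA, no clone and no time after shRNA delivery. They do not say that replicates were separate cultures. The p-values set the group difference against the variation among these libraries, which may be technical, and do not extend to new cultures.

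APOBEC3 enzymes convert cytidine to uridine in single-stranded DNA, which mutates retroviral reverse transcripts, and APOBEC3B also acts on the genomic DNA of many tumours. SAMHD1 hydrolyses deoxynucleotides and so starves reverse transcription, TREX1 degrades cytosolic DNA, and ADAR converts adenosine to inosine in double-stranded RNA. ZC3HAV1 encodes the zinc finger antiviral protein ZAP, which binds CpG-rich RNA, and SLFN11 is a Schlafen family protein that limits viral protein synthesis and sensitises cells to DNA-damaging drugs. Most of these genes can be induced by interferon.

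The 7 human APOBEC3 genes lie side by side on chromosome 22 and resemble each other, which bears on how reads were shared among them. A window of 60 bases that encodes the zinc-binding cysteines of the last deaminase domain is shown for each paralog. The zinc-binding histidine is encoded upstream of the window. Sequences run 5′ to 3′ on the + strand of GRCh38, from the transcripts of GENCODE 29. Capitals mark bases that differ from APOBEC3G at the same position of the window, with no gaps allowed.
APOBEC3A: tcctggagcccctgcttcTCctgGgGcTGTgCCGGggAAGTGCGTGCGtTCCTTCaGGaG
APOBEC3B: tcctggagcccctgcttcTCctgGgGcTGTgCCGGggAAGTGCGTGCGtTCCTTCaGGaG
APOBEC3C: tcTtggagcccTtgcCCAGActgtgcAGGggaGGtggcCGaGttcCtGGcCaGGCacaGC
APOBEC3D: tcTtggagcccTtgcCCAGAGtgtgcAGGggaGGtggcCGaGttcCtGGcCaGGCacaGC
APOBEC3F: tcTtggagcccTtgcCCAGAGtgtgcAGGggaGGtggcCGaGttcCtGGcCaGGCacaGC
APOBEC3G: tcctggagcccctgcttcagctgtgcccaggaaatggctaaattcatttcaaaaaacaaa
APOBEC3H: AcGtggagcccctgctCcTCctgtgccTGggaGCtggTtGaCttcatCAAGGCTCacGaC
The windows lie at chr22:38961501-38961560 in exon 4 of APOBEC3A, chr22:38991446-38991505 in exon 6 of APOBEC3B, chr22:39017868-39017927 in exon 3 of APOBEC3C and chr22:39031796-39031855 in exon 6 of APOBEC3D. Those of APOBEC3F, APOBEC3G and APOBEC3H lie at chr22:39052176-39052235 in exon 6, chr22:39086393-39086452 in exon 6 and chr22:39101327-39101386 in exon 3. APOBEC3A and APOBEC3B were identical here and differed from APOBEC3G at 31 bases in this comparison without gaps. Their stretch between the cysteine codons is longer than that of APOBEC3G, which puts the later bases out of register. The count of 31 is therefore no measure of how alike these genes are. APOBEC3D and APOBEC3F were also identical, with 25 differences from APOBEC3G, against 24 for APOBEC3C and 22 for APOBEC3H. Over whole transcripts, 39.6% of the 50-base stretches of APOBEC3B occurred in another APOBEC3 gene, against 1.16% for APOBEC3C, 15.2% for APOBEC3D, 24.0% for APOBEC3F and 19.1% for APOBEC3G. With genes of any name counted, the share for APOBEC3D was 88.4%, and the overlapping gene ENSG00000284554 held 83.6% of its stretches. How the authors' counting divided such reads is not given in the sources used here, so estimates for APOBEC3B, APOBEC3D, APOBEC3F and APOBEC3G are uncertain to that extent.

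TTC3, the target of the shRNA, was at 228, 183 and 178 CPM (counts scaled to a common library size with TMM factors) in TTC3 shRNA libraries 1, 2 and 3, against 695, 684 and 680 CPM in control shRNA libraries. Its level was 28.6% of control (log2 fold change -1.81 ± 0.10 SE, edgeR adjusted p = 5.65e-05). Libraries held 144655100 to 155526861 counts with TTC3 shRNA and 143246356 to 154832203 with control shRNA. TTC3 shRNA replicate 1 stood apart from replicates 2 and 3 on the second principal component (14.3% of variance), and the first (61.3%) separated the groups. Relative to control, log2 CPM changed with each doubling of transcript length by -0.03, -0.15 and -0.19 in TTC3 shRNA replicates 1, 2 and 3, over 11414 genes. Markers fitted the labelled line, an androgen-independent epithelial line, with VIM at 1400 to 1778 CPM in TTC3 shRNA and 1229 to 1242 CPM in control shRNA, KRT8, KRT18 and KRT19 at 139 CPM or more in every library, and KLK2 and KLK3 at 0 in all 6. Of the 6 epithelial and PC3 markers, KRT18, EPCAM and VIM were called higher and CDH1 lower, and all 3 tested of 5 androgen-responsive markers were called lower. In bulk RNA, fewer cells that express a gene and less RNA per cell cannot be told apart.

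All 10 members passed the low-count filter, and 5 passed the test at an adjusted p below 0.05 (edgeR quasi-likelihood test, Benjamini-Hochberg adjustment over 24325 genes, of which 33.6% passed). SLFN11 and APOBEC3B rose, where 15.7% of all tested genes were called higher. SAMHD1, ADAR and ZC3HAV1 fell, where 17.8% were called lower. The other 5 members, APOBEC3C, APOBEC3D, APOBEC3F, APOBEC3G and TREX1, were not called. The median log2 fold change of the 10 was -0.16, against -0.02 over all tested genes. The 3 TTC3 shRNA libraries lay wholly above or below the 3 control shRNA libraries for 8 members, where this held for 50.3% of tested genes. With 3 libraries a group, an exact two-sided permutation test of a single value cannot go below 0.1.

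**Figure D1:**
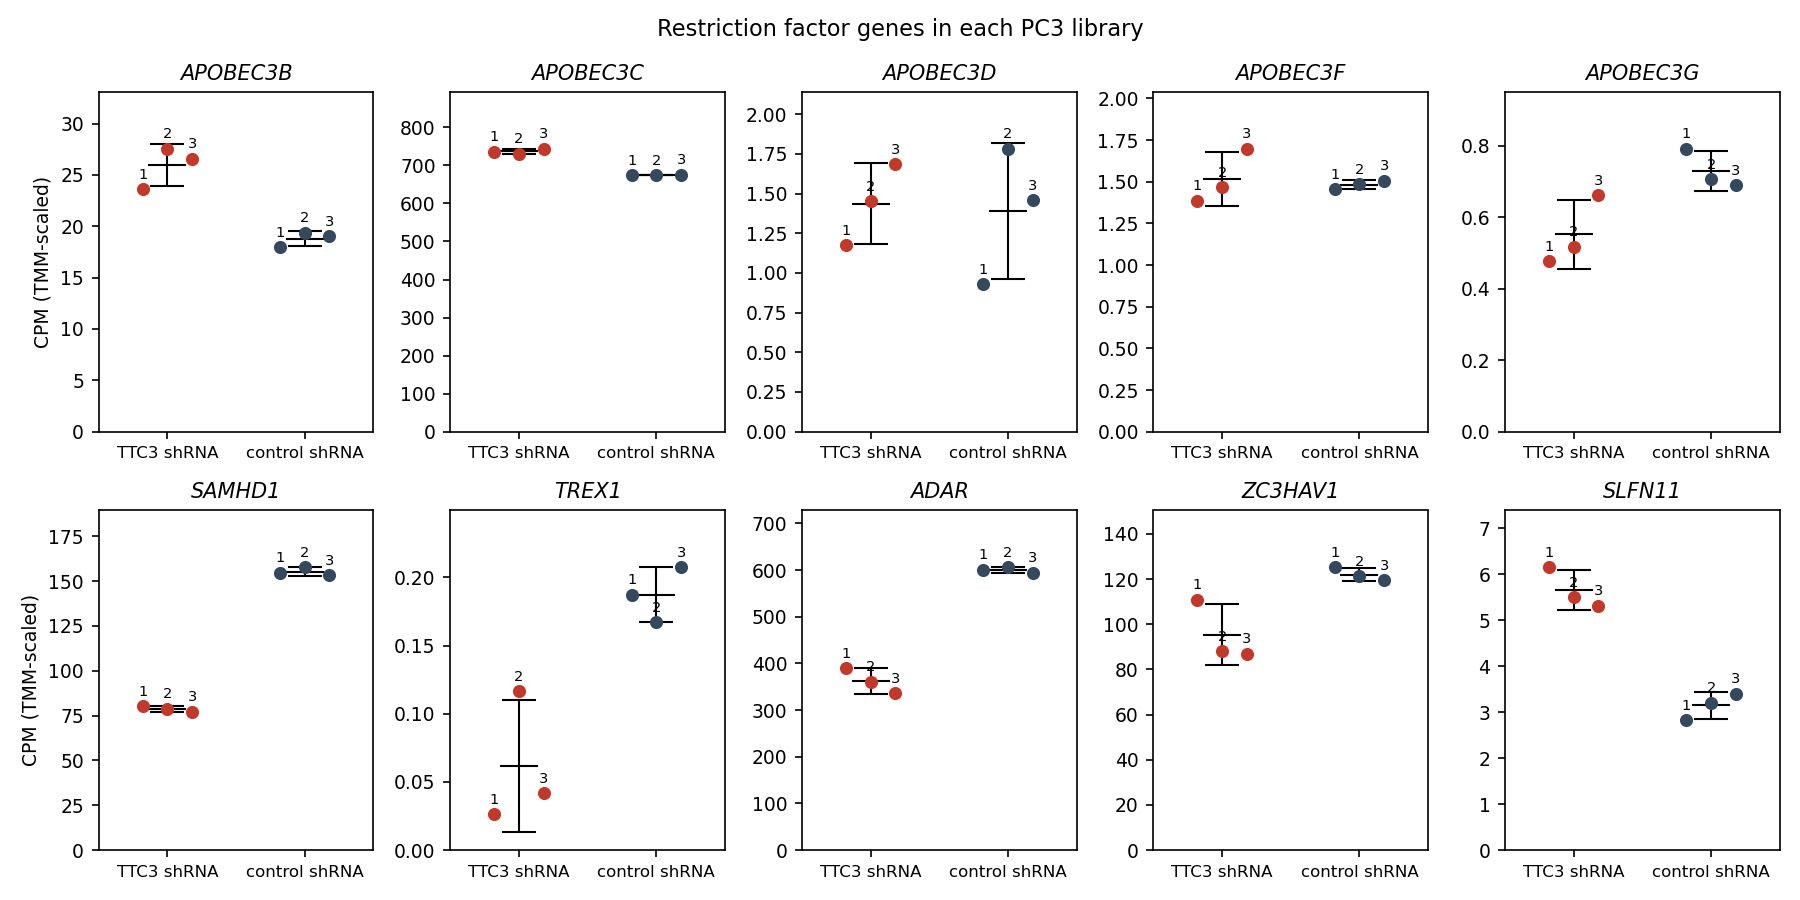
CPM of the 10 members in each library, with numbered points for replicates, TTC3 shRNA left of control shRNA, and lines for the mean ± SD (n = 3 each). SAMHD1 and ADAR sit lower and SLFN11 and APOBEC3B higher in all 3 TTC3 shRNA libraries, while APOBEC3D and APOBEC3F overlap between the groups.

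Promoters are shown for SAMHD1, which fell most clearly, for SLFN11, which rose most, and for ZC3HAV1, which shares a motif with SLFN11. These genes were chosen after their values were seen, and no link between a motif and a change was tested. RefSeq (GRCh38.p14) gave 7 promoter entries for 5 of the 10 members, each from 250 bases before to 50 after a start site. Capitals mark matches, on either strand, to the CCAAT box (CCAAT) and NRF1 site (GCGC, any base, then TGCGC) in SAMHD1, to the gamma-activated sequence (GAS) element (TTCNNNGAA), the GC box (GGGCGG) and the CCAAT box in SLFN11, and to the GAS element and TATA box (TATAAA) in ZC3HAV1. All are on the - strand, at chr20:36951659-36951958, chr17:35373572-35373871 and chr7:139109671-139109970.
SAMHD1: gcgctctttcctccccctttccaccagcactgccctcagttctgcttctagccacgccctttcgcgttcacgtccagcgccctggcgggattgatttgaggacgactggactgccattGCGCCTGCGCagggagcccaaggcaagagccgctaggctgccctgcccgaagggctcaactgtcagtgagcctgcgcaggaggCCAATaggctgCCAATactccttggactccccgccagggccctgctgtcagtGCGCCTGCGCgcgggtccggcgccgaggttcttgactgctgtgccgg
SLFN11: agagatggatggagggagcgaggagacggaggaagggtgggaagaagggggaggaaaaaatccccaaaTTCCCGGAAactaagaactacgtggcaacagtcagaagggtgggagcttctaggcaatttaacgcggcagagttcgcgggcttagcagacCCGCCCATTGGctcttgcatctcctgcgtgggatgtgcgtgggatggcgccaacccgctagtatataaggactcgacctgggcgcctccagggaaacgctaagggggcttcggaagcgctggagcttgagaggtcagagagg
ZC3HAV1: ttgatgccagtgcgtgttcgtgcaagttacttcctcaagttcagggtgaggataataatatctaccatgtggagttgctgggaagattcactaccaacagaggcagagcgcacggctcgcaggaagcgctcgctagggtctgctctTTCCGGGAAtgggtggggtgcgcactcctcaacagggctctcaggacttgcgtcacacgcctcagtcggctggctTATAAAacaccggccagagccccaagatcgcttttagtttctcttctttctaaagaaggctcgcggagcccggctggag
SAMHD1 held the NRF1 letters from -132 to -123 and from 3 to 12 of its start site, where 5.78% of 35116 promoters held them. The GAS letters stood from -182 to -174 in SLFN11 and from -104 to -96 in ZC3HAV1, and 7.66% of promoters held them. None of the 7 windows held the core of the interferon-stimulated response element (GAAA, any 2 bases, then GAAA), which 3.57% of promoters held. The ADAR windows stood at start sites 154608797, 154627971 and 154627997 of chromosome 1. ADAR transcripts ENST00000368474.9 and ENST00000529168.2, with 3678 and 3600 coding bases, start outside them, at 154608186 and 154608170. No APOBEC3 member had a window, so the absence does not cover those promoters. The CCAAT, GC and TATA letters occurred in 34.6%, 45.0% and 11.5% of promoters. In SLFN11 the GC and CCAAT matches adjoin without overlap. A match is a description of these letters and no evidence that a factor binds.

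Among the deaminases, APOBEC3B (ENSG00000179750.16, chr22:38982347-38992804, + strand) was at 23.6, 27.6 and 26.6 CPM in TTC3 shRNA libraries and 17.97, 19.4 and 19.0 CPM in control shRNA libraries. Every TTC3 shRNA library was above every control library. The means were 25.9 ± 2.05 CPM with TTC3 shRNA and 18.8 ± 0.725 CPM with control shRNA (SD, n = 3 each), a 1.38-fold rise (log2 fold change 0.46 ± 0.08 SE, adjusted p = 0.00579). Its log2 value was 0.33 to 0.54 over the alternatives, and the call ended only against a fold of 1.5 as the null (adjusted p = 1.00). In GENCODE 29 the span of APOBEC3A, chr22:38952741-38992778, runs over most of APOBEC3B. The whole deposited APOBEC3A count, however, was given to transcript ENST00000402255.5, at chr22:38952751-38963183, which ends before APOBEC3B begins. Of the 50-base stretches of APOBEC3B, 25.3% also occur in GENCODE 29 transcripts of APOBEC3A, and how reads there were divided was not tested.

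APOBEC3C (ENSG00000244509.4, chr22:39014083-39020352), a single-domain enzyme with weak activity against HIV, was the paralog of highest level, at 736, 731 and 744 CPM with TTC3 shRNA and 674, 674 and 676 CPM with control shRNA. The groups did not overlap, and the means of 737 ± 6.50 CPM with TTC3 shRNA and 675 ± 1.01 CPM with control shRNA (SD, n = 3 each) differed by a log2 value of 0.13 ± 0.06 (SE) that missed the threshold (adjusted p = 0.115). It did pass when TTC3 shRNA replicate 1 was left out (adjusted p = 0.00421) and under DESeq2 (adjusted p = 0.0237). With library totals in place of TMM factors its log2 fold change was -0.00 (adjusted p = 1.00).

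APOBEC3D, APOBEC3F and APOBEC3G, the double-domain enzymes known for restricting Vif-deficient HIV in T cells, were rare. APOBEC3D (ENSG00000243811.12, chr22:39021113-39033276) was at 1.17, 1.45 and 1.69 CPM with TTC3 shRNA and 0.930, 1.78 and 1.46 CPM with control shRNA. APOBEC3F (ENSG00000128394.17, chr22:39040604-39053910) was at 1.39, 1.47 and 1.70 CPM with TTC3 shRNA and 1.45, 1.49 and 1.51 CPM with control shRNA. Both genes overlapped between the groups, with log2 fold changes of 0.05 ± 0.26 for APOBEC3D (adjusted p = 0.908) and 0.03 ± 0.14 for APOBEC3F (adjusted p = 0.874, SE). The signs turned to -0.09 for APOBEC3D and -0.10 for APOBEC3F with library totals. APOBEC3D was at -0.07 without TTC3 shRNA replicate 3 and -0.18 without control shRNA replicate 1. APOBEC3F was at -0.04 without TTC3 shRNA replicate 3.

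APOBEC3G (ENSG00000239713.9, chr22:39077005-39087743) had 72, 71 and 95 counts with TTC3 shRNA and 127, 114 and 103 counts with control shRNA, or 0.478, 0.518 and 0.662 CPM with TTC3 shRNA and 0.793, 0.706 and 0.690 CPM with control shRNA. All 3 TTC3 shRNA libraries were below the control libraries, the nearest pair being TTC3 shRNA replicate 3 and control shRNA replicate 3. The log2 fold change of -0.40 ± 0.19 (SE) missed the threshold (adjusted p = 0.151), and it stayed below 0 under every alternative run. The paralogs outside the members were also rare. APOBEC3A, at the start of the cluster and known from myeloid cells and keratinocytes, had 59, 57 and 101 counts with TTC3 shRNA and 52, 50 and 58 counts with control shRNA (log2 fold change 0.56 ± 0.29 SE, adjusted p = 0.171). APOBEC3H, at its end, had 6, 0 and 9 counts with TTC3 shRNA and 8, 3 and 4 with control shRNA and was not tested.

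**Figure D2:**
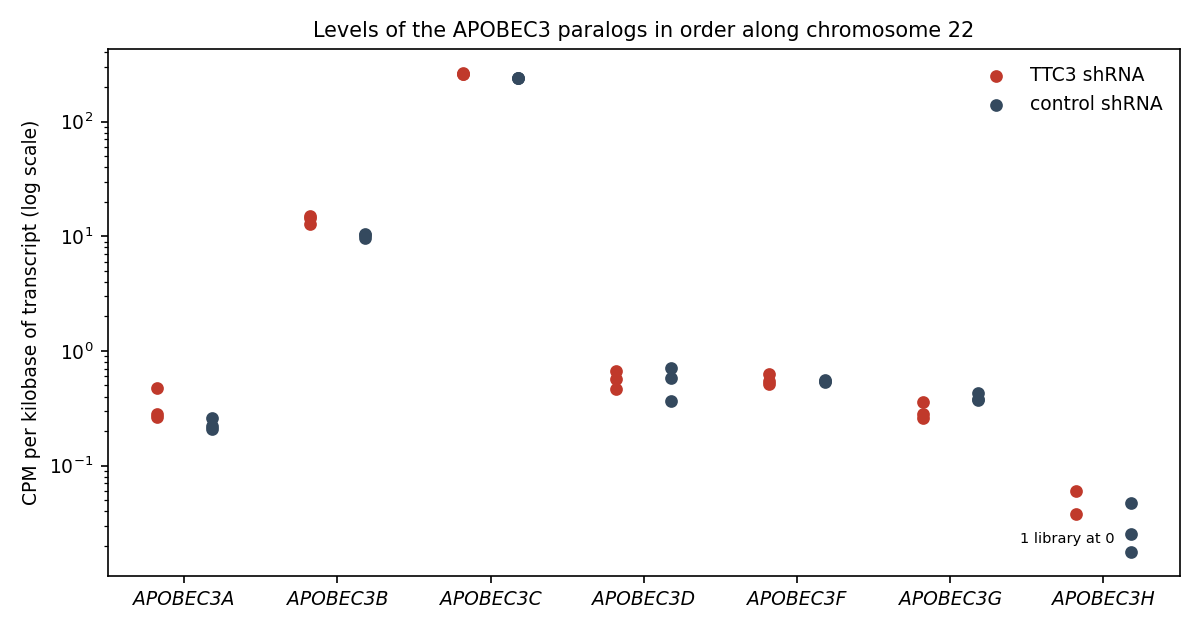
Level of the 7 APOBEC3 paralogs in CPM per kilobase of transcript on a log axis, in chromosomal order, with a point per library and TTC3 shRNA left of control shRNA. APOBEC3C lies near 262 with TTC3 shRNA and 239 with control shRNA, far above APOBEC3B near 14.1 with TTC3 shRNA and 10.2 with control shRNA, and the other 5 lie below 1.

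Per kilobase of transcript, APOBEC3C was at 260 to 264 CPM with TTC3 shRNA and 239 to 240 CPM with control shRNA. APOBEC3B followed at 12.8 to 14.9 CPM per kilobase with TTC3 shRNA and 9.75 to 10.5 with control shRNA. APOBEC3D (0.465 to 0.667 with TTC3 shRNA, 0.368 to 0.706 with control shRNA) and APOBEC3F (0.515 to 0.631 with TTC3 shRNA, 0.540 to 0.559 with control shRNA) did not differ from each other beyond their spread. APOBEC3G came next at 0.260 to 0.361 CPM per kilobase with TTC3 shRNA and 0.376 to 0.432 with control shRNA. Its range overlapped that of APOBEC3A in TTC3 shRNA libraries (0.265 to 0.476) but not in control shRNA libraries (0.210 to 0.263). Summed over the 7 paralogs, the level was 276 to 281 CPM per kilobase with TTC3 shRNA and 251 to 252 with control shRNA. APOBEC3B made up 4.65 to 5.41% of that sum with TTC3 shRNA and 3.89 to 4.18% with control shRNA, and APOBEC3C made up 94.0 to 94.8% with TTC3 shRNA and 95.1 to 95.5% with control shRNA. The ratio of APOBEC3B to APOBEC3C CPM, which no scaling of the libraries can move, was 0.0321 to 0.0377 with TTC3 shRNA and 0.0267 to 0.0287 with control shRNA, so the groups did not overlap.

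SAMHD1 (ENSG00000101347.11, chr20:36889773-36951901, - strand) had the lowest adjusted p of the members. It was at 80.2, 78.8 and 77.1 CPM in TTC3 shRNA libraries and 155, 158 and 153 CPM in control shRNA libraries. The groups were far apart and the replicates of each lay close together. Means of 78.7 ± 1.54 CPM with TTC3 shRNA and 155 ± 2.37 CPM with control shRNA (SD, n = 3 each) put SAMHD1 at 50.7% of control (log2 fold change -0.98 ± 0.05 SE, adjusted p = 5.14e-05). It was called in all 17 alternatives, with log2 values of -1.11 to -0.88, and against a fold of 1.5 as the null it was the one member called (adjusted p = 0.000820). Of all tested genes, 17.0% had a larger absolute log2 fold change.

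Genes that supply deoxynucleotides, which SAMHD1 degrades, were called in both directions. Of 8 tested, 4 rose and 2 fell, with a median log2 fold change of 0.19. Among all tested genes, 15.7% were called higher and 17.8% lower, and each list count here and below is to be read beside these shares. TK1, the thymidine kinase of S phase, was at 184 to 278 CPM with TTC3 shRNA and 133 to 141 CPM with control shRNA (log2 fold change 0.83 ± 0.15 SE, adjusted p = 0.00645), and the ribonucleotide reductase subunit RRM2 (0.31 ± 0.06, adjusted p = 0.00776) and the thymidylate synthase TYMS (0.25 ± 0.06, adjusted p = 0.0157) rose less. The mitochondrial thymidine kinase TK2 fell by 0.60 ± 0.07 on the log2 scale (adjusted p = 0.00146). The other 2 calls, named after their values were seen, were DCTD (higher) and DCK (lower). The count of 4 rising genes was 1 with library totals, 2 with the length trend removed, and 2 without TTC3 shRNA replicate 2 or without any one control replicate, and 1 gene in place of 2 was called lower without any one library other than TTC3 shRNA replicate 1. TK1 and TK2 kept their calls in all of these.

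Among 5 genes that regulate SAMHD1 through its phosphorylation by cyclin A-dependent kinases, 2 rose and 1 fell. CCNA2, the cyclin A gene, was at 63.3 to 69.7 CPM with TTC3 shRNA and 49.5 to 51.8 CPM with control shRNA (log2 fold change 0.41 ± 0.06 SE, adjusted p = 0.00329). CDKN1A, the kinase inhibitor p21, was at 8.76 to 10.9 CPM with TTC3 shRNA and 17.4 to 19.1 CPM with control shRNA (-0.85 ± 0.10, adjusted p = 0.00137). CDK2 rose by a log2 value of 0.20 ± 0.06 (adjusted p = 0.0337), a call that ended with library totals (adjusted p = 0.412), after removal of the length trend, with the replicate block and without any one library other than TTC3 shRNA replicate 1, which left 1 gene called higher. Without TTC3 shRNA replicate 1, a second gene, CDK6, was called lower (adjusted p = 5.06e-05), and it is named here after its value was seen.

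TREX1 (ENSG00000213689.14, chr3:48465811-48467645, + strand) was at the edge of detection. It had 4, 16 and 6 counts with TTC3 shRNA and 30, 27 and 31 counts with control shRNA, so it passed the low-count filter through the control libraries. All 3 TTC3 shRNA libraries were below the control libraries, with replicate 2 nearest to them. Its log2 fold change was -1.60 ± 0.56 (SE, adjusted p = 0.0647), which was not called. Under 5 alternatives its adjusted p was 0.0210 to 0.0498, lowest without TTC3 shRNA replicate 2 (log2 fold change -2.43). Since the filter admitted TREX1 through the group where it was higher, these tests lean towards a fall, and the values are given as a description.

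The TREX1 transcript lies inside the span of ATRIP, chr3:48446710-48467645 on the same strand, and all 1422 of its 50-base stretches also occur in ATRIP transcripts. ATRIP, a partner of the ATR checkpoint kinase, had 4416, 4199 and 4641 counts with TTC3 shRNA and 4502, 4756 and 4456 counts with control shRNA (log2 fold change 0.08, adjusted p = 0.410). The ATRIP transcript ENST00000320211.10, which holds 96.7% of those stretches, had 1817, 1458 and 3033 counts with TTC3 shRNA and 1624, 1750 and 1831 with control shRNA. The count given to TREX1 is therefore a small share of reads that could come from either gene, and its value is uncertain to that extent.

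Of 8 TREX1 partners and related 3′ exonuclease genes, 5 rose and 1 fell, with a median of 0.27. NME1, a component of the granzyme A-activated SET complex with TREX1, was at 224 to 264 CPM with TTC3 shRNA and 154 to 159 CPM with control shRNA (log2 fold change 0.66 ± 0.08 SE, adjusted p = 0.00120). STING1, the adaptor of the cytosolic DNA sensor that TREX1 keeps silent, was at 16.1 to 17.99 CPM with TTC3 shRNA and 10.3 to 11.7 CPM with control shRNA (0.63 ± 0.09, adjusted p = 0.00224). APEX1 rose by 0.36 ± 0.07 (adjusted p = 0.0102) and ANP32A fell by 0.29 ± 0.06 (adjusted p = 0.00989), while HMGB2 and SET, named after their values were seen, were called higher. Without any one control replicate 2 rose and 0 fell, and without TTC3 shRNA replicate 2 the rising genes were 3. NME1 and STING1 kept their calls throughout. Of 5 further genes of nucleic acid metabolism that, like TREX1, SAMHD1 and ADAR, are mutated in Aicardi-Goutières syndrome, the RNase H2 subunit genes RNASEH2C (0.83 ± 0.15, adjusted p = 0.00635), RNASEH2A (0.61 ± 0.18, adjusted p = 0.0351) and RNASEH2B (0.26 ± 0.08, adjusted p = 0.0436) rose. IFIH1, the double-stranded RNA sensor MDA5, fell by 2.48 ± 0.10 (adjusted p = 1.21e-05). The median of these 5 genes was 0.26. RNASEH2C alone was called higher with library totals, without TTC3 shRNA replicate 2 and without any one control replicate, and 2 genes were called lower with library totals or without TTC3 shRNA replicate 1.

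ADAR (ENSG00000160710.18, chr1:154582057-154628013, - strand) stood second among the members per kilobase of transcript, after APOBEC3C, and was at 390, 361 and 336 CPM in TTC3 shRNA libraries and 600, 606 and 594 CPM in control shRNA libraries. All TTC3 shRNA libraries were well below the controls. Means of 362 ± 26.9 CPM with TTC3 shRNA and 600 ± 6.0 CPM with control shRNA (SD, n = 3 each) put ADAR at 60.4% of control (log2 fold change -0.73 ± 0.07 SE, adjusted p = 0.000545). Its transcript is long, at 6700 bases, and once the length trend was removed its log2 fold change was -0.60 (adjusted p = 0.000232). Against a fold of 1.5 as the null the call ended (adjusted p = 0.108). ADARB1, which encodes the editing enzyme ADAR2, was at 137 to 138 CPM with TTC3 shRNA and 119 to 123 CPM with control shRNA (0.19 ± 0.05, adjusted p = 0.0327). It was the 1 of 2 tested among 8 further deaminase genes that was called, and its call ended with library totals (0.06, adjusted p = 0.495), with the replicate block (adjusted p = 0.0896) and without any one library other than TTC3 shRNA replicate 1.

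Sensors and effectors of double-stranded RNA, which ADAR editing keeps quiet, were mostly called lower. Of 7 tested among 9, 5 fell and 1 rose, with a median log2 fold change of -1.91. The oligoadenylate synthetase OAS1 was at 21.5 to 27.3 CPM with TTC3 shRNA and 159 to 162 CPM with control shRNA (-2.70 ± 0.10 SE, adjusted p = 9.80e-06), OAS2 was at 36.8 to 44.9 CPM with TTC3 shRNA and 235 to 238 CPM with control shRNA (-2.56 ± 0.09, adjusted p = 8.39e-06), and OAS3 was at 178 to 190 CPM with TTC3 shRNA and 687 to 702 CPM with control shRNA (-1.91 ± 0.06, adjusted p = 6.81e-06). IFIH1 was among the 5, and the others called, named after their values were seen, were EIF2AK2 (lower), the kinase PKR, and MAVS (higher). The 5 falls held under each scaling, with the length trend removed and without any one library, and MAVS was not called with library totals (adjusted p = 0.0649). Of 10 transducers of interferon signalling, 7 fell and 0 rose, with a median of -0.59. STAT2 (-0.70 ± 0.07, adjusted p = 0.000450), IRF9 (-3.03 ± 0.29, adjusted p = 0.000466) and IRF1 (-2.08 ± 0.10, adjusted p = 2.73e-05) fell. Without TTC3 shRNA replicate 1, IRF3, named after its value was seen, was called higher (0.56, adjusted p = 2.93e-05).

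ZC3HAV1 (ENSG00000105939.14, chr7:139043520-139109719, - strand) was at 111, 88.0 and 87.0 CPM in TTC3 shRNA libraries and 125, 121 and 119 CPM in control shRNA libraries. Replicate 1 of the TTC3 shRNA group lay nearest to the controls, and the groups did not overlap. Its mean was 95.3 ± 13.5 CPM with TTC3 shRNA and 122 ± 3.02 CPM with control shRNA (SD, n = 3 each; log2 fold change -0.36 ± 0.10 SE, adjusted p = 0.0341). The call was weak. It ended without TTC3 shRNA replicate 2 (adjusted p = 0.122) or replicate 3 (adjusted p = 0.0969). The same held without control shRNA replicate 1, 2 or 3 (adjusted p = 0.119, 0.104 and 0.0965) and with no low-count filter (adjusted p = 0.0644). ZC3HAV1 was also not called against a fold of 1.5 as the null or at an adjusted p of 0.01. Its transcript of 7100 bases is the longest of the members, and removal of the length trend gave a log2 fold change of -0.23 (adjusted p = 0.0299).

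The cofactors of ZAP and the factors of CpG-rich RNA decay were mixed, with 4 of 9 called higher and 3 lower and a median of 0.03. The exosome subunit gene EXOSC7 was at 26.2 to 36.01 CPM with TTC3 shRNA and 20.04 to 21.1 CPM with control shRNA (log2 fold change 0.65 ± 0.13 SE, adjusted p = 0.00803), and the helicase gene DHX30 rose by 0.34 ± 0.10 (adjusted p = 0.0380). N4BP1, an endonuclease that acts with ZAP, was at 32.4 to 41.4 CPM with TTC3 shRNA and 46.6 to 49.8 CPM with control shRNA (-0.43 ± 0.10, adjusted p = 0.0180). OAS3, described above, fell as well, and KHNYN and EXOSC5 (higher) and DDX17 (lower) were named after their values were seen. Without any one library other than TTC3 shRNA replicate 1, EXOSC7 and OAS3 alone were called, and with library totals EXOSC7 was the 1 gene called higher.

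SLFN11 (ENSG00000172716.17, chr17:35350305-35373701, - strand) showed the largest rise of the members, at 6.15, 5.50 and 5.31 CPM in TTC3 shRNA libraries and 2.83, 3.21 and 3.40 CPM in control shRNA libraries. The lowest TTC3 shRNA library was above the highest control library. Means of 5.66 ± 0.439 CPM with TTC3 shRNA and 3.15 ± 0.292 CPM with control shRNA (SD, n = 3 each) differed 1.80-fold (log2 fold change 0.85 ± 0.12 SE, adjusted p = 0.00281). Against a fold of 1.5 as the null the call ended (adjusted p = 0.0940), and SLFN11 was called in the other alternatives with log2 values of 0.72 to 0.93.

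The other Schlafen genes tested over all 6 libraries fell. SLFN5 was at 28.7 to 37.5 CPM with TTC3 shRNA and 59.4 to 64.1 CPM with control shRNA (log2 fold change -0.93 ± 0.11 SE, adjusted p = 0.00111), and SLFN13, which cleaves tRNA, was at 2.42 to 2.64 CPM with TTC3 shRNA and 9.21 to 9.72 CPM with control shRNA (-1.90 ± 0.10, adjusted p = 3.50e-05). The ratio of SLFN11 to SLFN5 was 0.164 to 0.185 with TTC3 shRNA and 0.0441 to 0.0565 with control shRNA. SLFN13 shares 12.7% of the 50-base stretches of SLFN11, and it moved in the direction opposite to SLFN11. SLFN12, SLFN12L and SLFN14 did not pass the low-count filter over all 6 libraries. SLFN12 had 3, 0 and 0 counts with TTC3 shRNA and 37, 0 and 16 counts with control shRNA, so the groups overlapped. It passed the filter without any one TTC3 shRNA replicate, with no call (adjusted p = 0.0687 to 0.252), and without control shRNA replicate 2, one of its libraries at 0, when it was called lower (adjusted p = 0.0457). Since the filter admitted SLFN12 through the control libraries, where it was higher, these tests lean towards a fall. Leaving out a control library at 0 adds to that, and the values are given as a description.

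At transcript level, 34 annotated transcripts of the members were in the table and 25 were tested, of which 0 were called higher and 1 lower, where 1.39% and 2.6% of 53805 tested transcripts were called (3.99% in all). At an unadjusted p below 0.05, 7 passed, and DESeq2 called 6. The shares of all tested transcripts under these rules were not computed, so neither count is read as a result about the members. The 1 call was the main SAMHD1 transcript ENST00000646673.2, with 9480, 9302 and 9725 counts with TTC3 shRNA and 18890, 17165 and 17071 with control shRNA (log2 fold change -0.79 ± 0.07 SE, adjusted p = 0.00998). It held 78.5 to 87.8% of the gene's count with TTC3 shRNA and 67.4 to 76.2% with control shRNA. It was not called with the replicate block, and the number of member transcripts called was 0 without TTC3 shRNA replicate 2 or any one control replicate and 4 without TTC3 shRNA replicate 1. The shorter SAMHD1 transcript ENST00000643918.1 had 1796, 420 and 400 counts with TTC3 shRNA and 2805, 3557 and 3274 with control shRNA (-1.81 ± 0.64, adjusted p = 0.190).

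**Figure D3:**
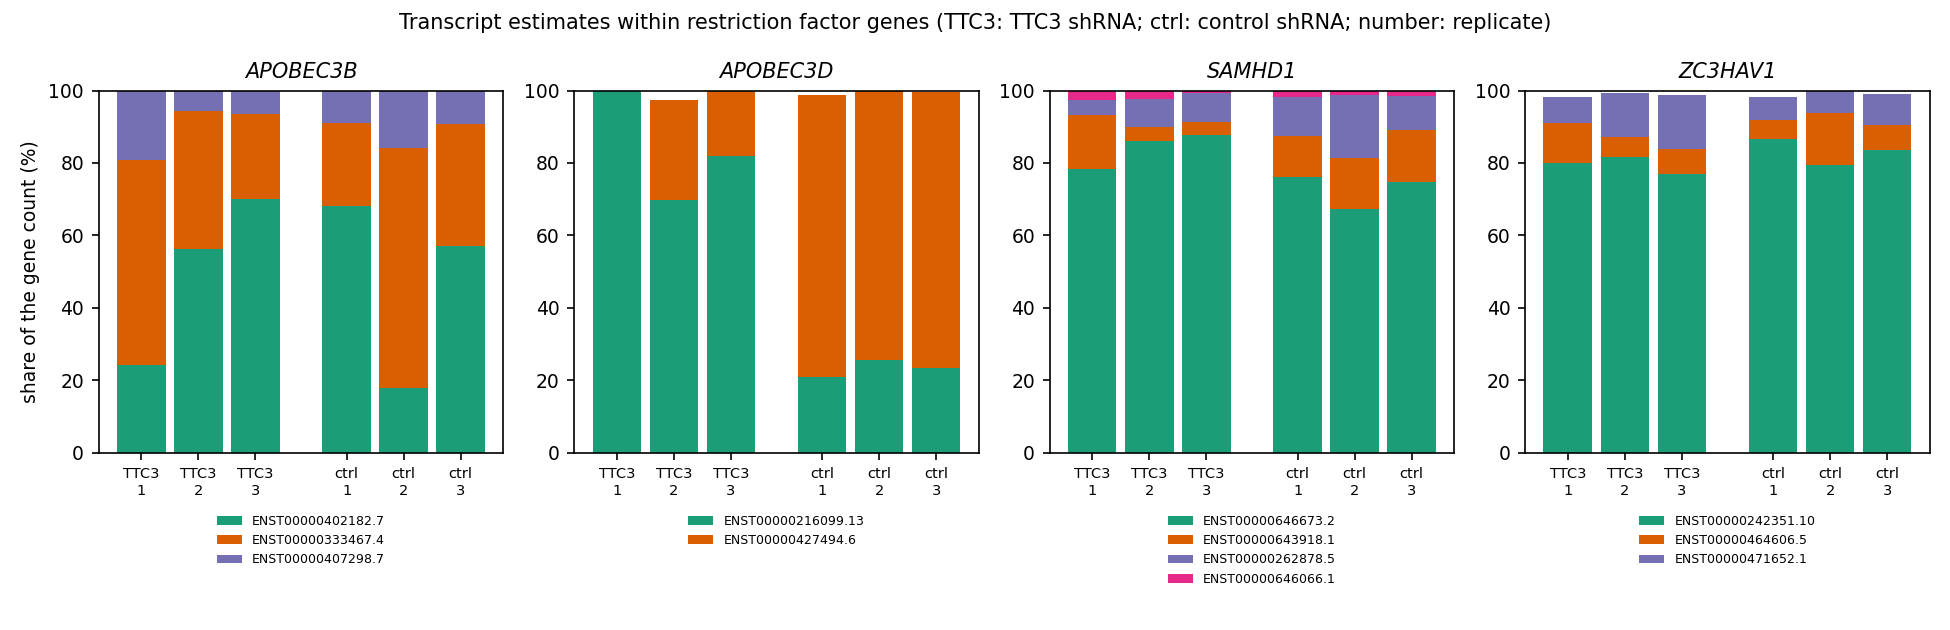
Share of the gene count given to each tested annotated transcript of APOBEC3B, APOBEC3D, SAMHD1 and ZC3HAV1, with a stacked bar per library and TTC3 shRNA left of control shRNA. The APOBEC3D transcript ENST00000216099.13 takes 69.8 to 100% with TTC3 shRNA and 20.8 to 25.7% with control shRNA, while the APOBEC3B shares vary as much within each group as between them.

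APOBEC3D overlapped between the groups in its gene count, and its transcript estimates, from few counts, lay apart without a call. ENST00000216099.13, with 1158 coding bases, had 177, 139 and 198 counts with TTC3 shRNA and 31, 74 and 51 with control shRNA (log2 fold change 1.82 ± 0.40 SE, adjusted p = 0.0735). ENST00000427494.6, with 606 coding bases, had 0, 55 and 44 counts with TTC3 shRNA and 116, 214 and 166 with control shRNA (-2.19 ± 1.38, adjusted p = 0.430). The groups did not overlap for either transcript, and neither was called. The share of all tested transcripts with groups apart was not computed, so this is given as a description. A transcript of the overlapping gene ENSG00000284554, named AL022318.4 in GENCODE 29, holds 83.6% of the 50-base stretches of ENST00000216099.13. It had 699, 321 and 246 counts with TTC3 shRNA and 443, 318 and 342 with control shRNA (0.31, adjusted p = 0.546), so its reads outnumbered those given to APOBEC3D in every library, and how the split between them was made was not tested.

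For ZC3HAV1, the transcript ENST00000242351.10 with 2706 coding bases had 13362, 9837 and 9626 counts with TTC3 shRNA and 17390, 15521 and 14924 with control shRNA (log2 fold change -0.44 ± 0.13 SE, adjusted p = 0.143). The second by mean count, ENST00000464606.5, overlapped between the groups (-0.50 ± 0.53, adjusted p = 0.657). ADAR encodes a long form from an interferon-responsive promoter and a short constitutive form. One long-form transcript, ENST00000529168.2 (3600 coding bases) had 2086, 1952 and 1209 counts with TTC3 shRNA and 3684, 3691 and 3769 with control shRNA (-0.98 ± 0.24, adjusted p = 0.0896). One short-form transcript, ENST00000648231.2 (2793 coding bases), had 2325, 2472 and 3812 counts with TTC3 shRNA and 4123, 2177 and 2705 with control shRNA (0.04 ± 0.31, adjusted p = 0.959). Other ADAR transcripts of 2793 coding bases ranged in log2 fold change from -0.47 (ENST00000368471.8) to 2.10 (ENST00000649724.1), with none called. Both are named after their values were seen. A further long-form transcript, ENST00000368474.9 (3678 coding bases), named after its values were seen, had 1081, 1749 and 2938 counts with TTC3 shRNA and 1964, 1022 and 1661 with control shRNA (0.42 ± 0.45, adjusted p = 0.660). The groups were apart for ENST00000529168.2 and overlapped for ENST00000368474.9 and ENST00000648231.2, so the counts gave no direction for either form as a whole. The annotated ADAR transcripts together held only 14.5 to 41.4% of the gene's count, and the difference between the forms was not tested. The main APOBEC3B transcript ENST00000402182.7 ranged from 861 to 2677 counts with TTC3 shRNA and from 561 to 1965 with control shRNA, and ENST00000333467.4 from 898 to 2015 counts with TTC3 shRNA and from 656 to 2070 with control shRNA, with no call for either (adjusted p = 0.674 and 0.753). APOBEC3C and APOBEC3G were each given 1 transcript, APOBEC3F had 95.5 to 100% of its count in 1, SLFN11 had 0 to 82.8% of its count in annotated transcripts, and no TREX1 transcript could be tested.

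**Figure D4:**
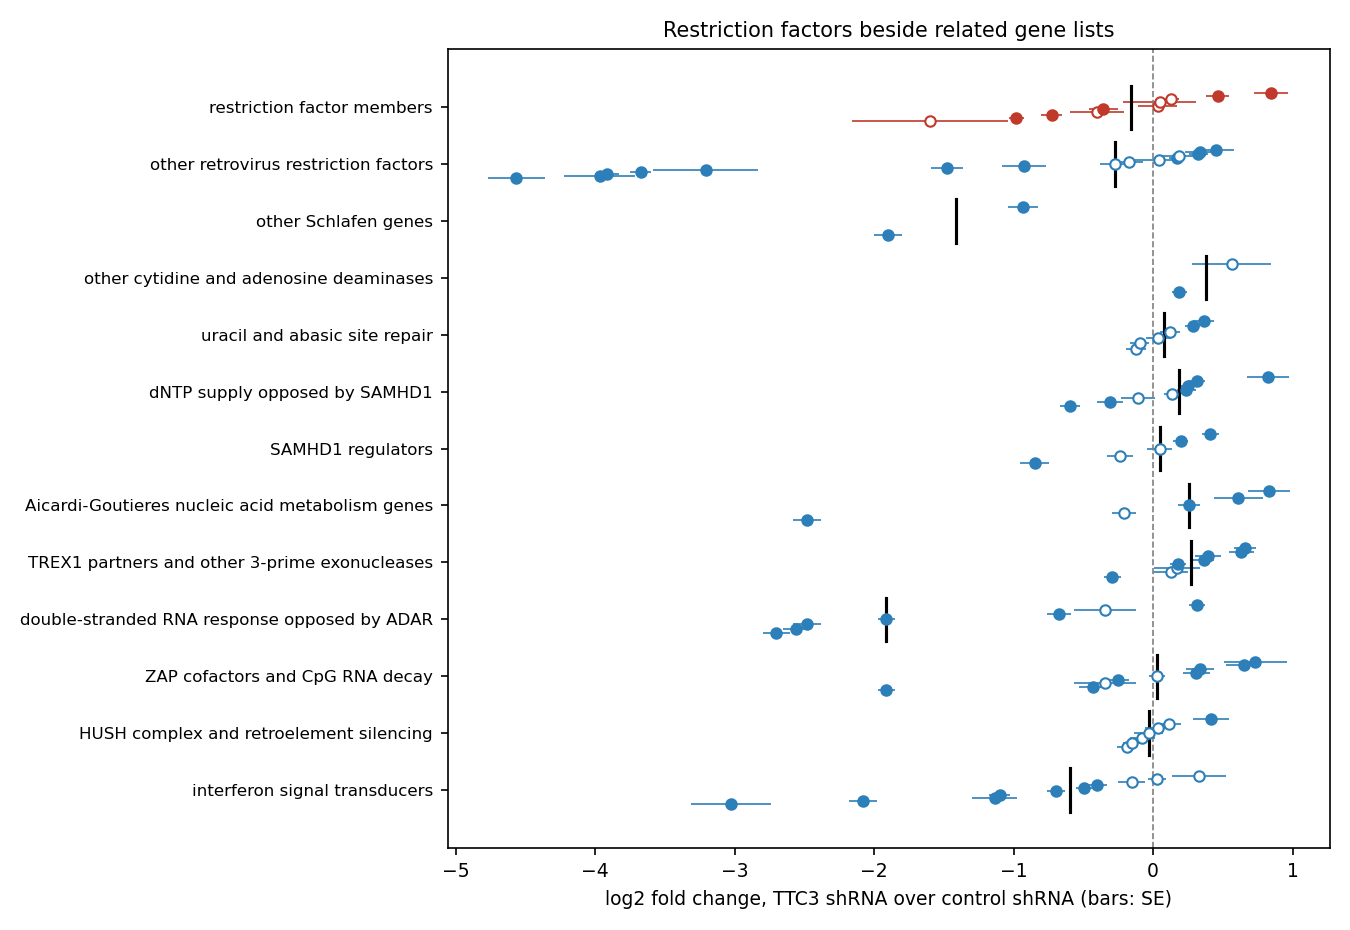
Log2 fold change (TTC3 shRNA over control shRNA) of each tested member and of each tested gene of 12 related lists, with SE bars, filled points for calls at an adjusted p below 0.05 and a vertical line at each list's median. The members (top) lie between -1.60 and 0.85, while the other restriction factors and the double-stranded RNA and interferon lists reach below -2.

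The other retrovirus restriction factors ranged in log2 fold change from -4.57 to 0.45. Of 15 tested, 7 fell and 4 rose, with a median log2 fold change of -0.27. IFITM1, which blocks membrane fusion, was at 9.68 to 10.99 CPM with TTC3 shRNA and 128 to 131 CPM with control shRNA (-3.67 ± 0.08 SE, adjusted p = 1.87e-06). MX2, which acts on the HIV capsid, was at 1.69 to 1.90 CPM with TTC3 shRNA and 26.6 to 27.8 CPM with control shRNA. The tetherin gene BST2 was at 0.444 to 0.773 CPM with TTC3 shRNA and 13.8 to 14.7 CPM with control shRNA. TRIM22, a relative of TRIM5, was at 0.167 to 0.314 CPM with TTC3 shRNA and 3.30 to 3.99 CPM with control shRNA. The 7 falls were 7 under each scaling, with the length trend removed and without any one library other than TTC3 shRNA replicate 1, which gave 9. The 4 rises, named after their values were seen, were SERINC5, MARCHF2, MARCHF8 and CNP, of which 0 were called with library totals or without any one control replicate and 1 without TTC3 shRNA replicate 2 or 3.

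Repair genes that remove the uracil left by APOBEC3 enzymes were called higher in 2 of 6 cases and lower in none, with a median of 0.08. That is near the share of all tested genes called in either direction, 33.6%. The uracil glycosylase UNG was at 87.3 to 90.0 CPM with TTC3 shRNA and 72.7 to 73.4 CPM with control shRNA (log2 fold change 0.29 ± 0.05 SE, adjusted p = 0.00702), and the abasic site endonuclease APEX1 was at 127 to 148 CPM with TTC3 shRNA and 107 to 110 CPM with control shRNA. UNG was not called with library totals (adjusted p = 0.0990) or without control shRNA replicate 3 (adjusted p = 0.0508), and APEX1 not without control shRNA replicate 1, 2 or 3 (adjusted p = 0.0560, 0.0520 and 0.0509). Without TTC3 shRNA replicate 1, 4 of the list were called higher and 1 lower. Of 7 genes of the HUSH complex and linked silencers of retroelements, TRIM28 was the 1 called (0.42 ± 0.13, adjusted p = 0.0412; list median -0.03). It was not called with library totals (adjusted p = 0.0827), which instead called 2 genes lower, or without any one library other than TTC3 shRNA replicate 1, and without that replicate 2 genes were called higher and 4 lower. Removal of the length trend gave 2 called higher.

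Several members are best known from lymphoid and myeloid cells, so markers of other cell types were measured. The 6 T cell markers summed to 0.118 to 0.226 CPM with TTC3 shRNA and 0.217 to 0.368 CPM with control shRNA, with CD3E, CD3D and CD2 at 0 in every library and 0 of 1 tested called. The 5 myeloid markers summed to 16.5 to 38.5 CPM with TTC3 shRNA and 13.6 to 18.2 CPM with control shRNA, nearly all of it CD68, a lysosomal protein gene, with 1 of 4 tested called higher and 3 lower. CD14 was below 1 CPM and CSF1R at 0.119 CPM or less in all 6 libraries. The 5 fibroblast markers summed to 44.0 to 102 CPM with TTC3 shRNA and 19.2 to 20.2 CPM with control shRNA, nearly all of it COL1A1, with 1 of 4 tested called higher and 1 lower, while DCN was at 0.0499 CPM or less in each library. The part of these markers in the members' values was not tested.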

How the data were processed

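PC3 RNA-seq libraries were made from ribosomal RNA-depleted total RNA with a strand-specific kit, per the labels' protocols. The submitters' processing notes name Trim Galore, STAR, StringTie and the build hg38. Versions, settings, annotation release and the use of strand in counting were not given in these sources. Estimated counts per gene and per transcript were deposited, unscaled and whole, so none was rounded. Every count column matched 1 library by name, and replicate numbers came from the titles.

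The main test was edgeR's quasi-likelihood test (glmQLFit, glmQLFTest; edgeR 4.0.16, R 4.3.3) over all 6 libraries, with no block. Low counts were removed by filterByExpr at its defaults (10 and 15 counts), leaving 24325 genes and 53805 transcripts, and TMM factors were 0.924 to 1.05. The threshold was a Benjamini-Hochberg adjusted p of 0.05. SEs are the log2 fold change divided by the root of F. At totals of 143246356 to 155526861 counts, the precision of abundant genes is set by differences between libraries, and that of rare genes also by counting error. Alternatives were DESeq2 size factors, library totals, TMM without mitochondrial and the 20 highest genes, no filter, at least 50 counts in 3 libraries, glmTreat at a fold of 1.5, an adjusted p of 0.01, a replicate block, removal of each library's lowess trend with transcript length, DESeq2 1.42.0, voom in limma 3.58.1, and each library left out. The scripts were tested on simulated counts.

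Positions, lengths and sequences came from GENCODE 29 on GRCh38, which held 58207 of 62700 genes and 98286 of 117688 transcripts by identifier, and promoters from RefSeq GRCh38.p14. The members and the 12 gene lists were chosen with earlier results of these data known, and no list was tested as a set. Named genes were the members, TTC3, APOBEC3A and APOBEC3H, up to 4 called genes of each list by adjusted p, and each member's 2 transcripts of highest mean count with any called; others are marked in the text as named after their values were seen. One gene that the rule names is not reported here.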

Additional observations from a re-analysis of the deposited data

How the results depend on the processing

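The number of genes past the test, 8165, was 2033 against a fold of 1.5, 4082 at an adjusted p of 0.01 and 4546 to 13739 without one library, the highest without TTC3 shRNA replicate 1. It was 6910 to 9719 under the other alternatives. With library totals, which moved the median log2 fold change of all genes by -0.13, 2518 were higher and 5356 lower, against 3827 and 4338 with TMM. The 5 members past the test were 1 against a fold of 1.5 (0 higher and 1 lower) and 4 to 6 without one library, with 2 to 3 higher and 2 to 3 lower. Called member transcripts, 1 at first, were 2 with library totals, 2 with at least 50 counts in 3 libraries, 0 against a fold of 1.5, 6 with DESeq2 and 0 to 4 without one library. Of 169 values of single members under the alternatives, 144 kept direction and side of the threshold, 11 lost the call, 7 gained it and 7 changed sign. The sign changes were APOBEC3C with library totals (-5.1e-06), APOBEC3D with library totals (-0.086), with the length trend removed (-0.0024), without TTC3 shRNA replicate 3 (-0.07) and without control shRNA replicate 1 (-0.18), and APOBEC3F with library totals (-0.10) and without TTC3 shRNA replicate 3 (-0.044). Without one library, APOBEC3D was at -0.18 to 0.27 and APOBEC3F at -0.044 to 0.11. The causes were not tested. TREX1 was not tested with at least 50 counts in 3 libraries. Where 1 library is left out of a group, the 2 that remain set its spread.

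The replicate numbers do not pair the libraries: deviations of same-numbered libraries correlated at 0.05, 0.04 and -0.01. With the replicate block, 6929 genes, 5 members (2 higher, 3 lower) and 0 member transcripts were called, and no member's call changed. Of the other listed genes, ADARB1, MARCHF8, CNP, DDX17, RNASEH2B, SET, DCTD and CDK2 were not called with it (adjusted p = 0.0510 to 0.113). Counting error bears on the genes of low count, among them TREX1, APOBEC3H, APOBEC3A and APOBEC3G.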
